A study of Mus musculus with 12 samples.

Results

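The 10 genes described here encode secreted, membrane and nuclear parts of the Wnt pathway, and were taken from the count matrix by their symbols: the ligands Wnt5a and Wnt5b, the R-spondin Rspo3, the secreted antagonists Sfrp1, Sfrp2, Dkk2 and Dkk3, the receptor Fzd1, the transcription factor Tcf7l2 and the feedback target Axin2. All 10 were found among the 48321 genes listed, and 8 of them were among the 11998 genes that were tested, since Wnt5b and Axin2 had too few reads. A gene was tested when 3 or more of the 12 libraries reached 10 normalized counts for it. In cells that expressed tSema4B, the transcripts of Wnt5a, Sfrp1 and Sfrp2 were 1.81-fold to 2.74-fold higher than in vector cells, both without stimulation and after norepinephrine (NE).

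The cells were brown adipocytes, differentiated for 8 days from SV40-immortalized preadipocytes of the interscapular brown fat of a newborn wild-type mouse (strain C57BL/6J), so that both constructs were carried by cells of 1 animal. Before differentiation the preadipocytes had been transduced by lentivirus with the empty vector (pLEX) or with tSema4B, a truncated and therefore soluble form of semaphorin 4B that mimics the product released by the protease ADAM17, so that each construct was represented by 1 stable line. All groups received the same differentiation mixture of 3-isobutyl methylxanthine, rosiglitazone, dexamethasone, insulin and triiodothyronine, and were then kept for 6 h in serum-free medium with albumin, either without (unstimulated) or with 2 μM NE, the adrenergic agonist that activates thermogenesis. This gave 4 groups of 3 libraries, with vector and tSema4B cells each unstimulated or under NE. The 3 libraries of a group were described as technical replicates, so p-values measure only the spread between these libraries, and the difference between the lines cannot be told apart from any other difference between 2 stably transduced cultures.

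Wnt proteins are lipid-modified secreted ligands that bind Frizzled receptors. In the canonical branch, receptor binding stabilizes β-catenin, which joins TCF/LEF factors on DNA and raises targets such as Axin2, a brake on the same pathway; Wnt5a and Wnt5b act mostly through branches that do not need β-catenin. Sfrp proteins bind Wnt ligands outside the cell, Dkk1, Dkk2 and Dkk4 block the LRP co-receptors, and R-spondins slow the removal of Frizzled from the membrane. In preadipocytes, active canonical Wnt signalling is known to hold back adipogenesis.

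TCF/LEF factors recognize a core that is written CTTTGA or CTTTGT, and both words were searched on either strand in RefSeq promoters (GRCm38.p6) that run from 250 bases before to 50 bases after a transcription start. The promoter table held 9 promoters of 6 of the genes, and 4 of the 9 contained a match, while 31.2% of all 32851 promoters of 300 bases did. The promoters of Sfrp2, Fzd1 and Tcf7l2 are printed 5′ to 3′ on the gene's strand because these genes had the most reads of the 10, with matches in capitals. The first is Sfrp2 at chr3:83766071-83766370 on the plus strand, the second is Fzd1 at chr5:4758167-4758466 on the minus strand, and the others are an upstream start of Tcf7l2 at chr19:55741560-55741859 and an internal start of Tcf7l2 at chr19:55895071-55895370, both on the plus strand.
Sfrp2: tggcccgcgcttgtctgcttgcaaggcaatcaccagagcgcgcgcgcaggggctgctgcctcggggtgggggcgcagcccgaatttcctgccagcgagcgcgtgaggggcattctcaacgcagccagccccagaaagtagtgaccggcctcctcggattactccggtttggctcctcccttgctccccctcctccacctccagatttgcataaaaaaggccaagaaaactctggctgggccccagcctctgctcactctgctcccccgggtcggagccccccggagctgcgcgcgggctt
Fzd1: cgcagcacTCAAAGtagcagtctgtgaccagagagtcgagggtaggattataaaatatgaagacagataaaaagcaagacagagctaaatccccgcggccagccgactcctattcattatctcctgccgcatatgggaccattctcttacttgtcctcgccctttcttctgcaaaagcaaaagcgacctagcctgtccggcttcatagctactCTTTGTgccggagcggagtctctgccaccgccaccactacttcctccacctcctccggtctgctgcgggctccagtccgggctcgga
Tcf7l2, upstream start: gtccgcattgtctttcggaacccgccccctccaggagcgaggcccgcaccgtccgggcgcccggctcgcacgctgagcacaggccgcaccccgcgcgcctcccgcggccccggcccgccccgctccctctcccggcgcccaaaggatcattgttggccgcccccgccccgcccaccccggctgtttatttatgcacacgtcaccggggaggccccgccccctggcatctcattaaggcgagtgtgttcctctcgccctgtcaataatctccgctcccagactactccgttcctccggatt
Tcf7l2, internal start: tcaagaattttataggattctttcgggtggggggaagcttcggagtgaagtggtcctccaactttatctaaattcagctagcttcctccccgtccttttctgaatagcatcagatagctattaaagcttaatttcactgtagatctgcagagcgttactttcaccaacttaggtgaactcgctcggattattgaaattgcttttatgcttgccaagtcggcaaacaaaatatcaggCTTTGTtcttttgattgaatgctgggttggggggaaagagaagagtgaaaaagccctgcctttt
Fzd1 held CTTTGT at position -37 from its start and CTTTGA on the other strand, read here as TCAAAG, at position -242. The internal Tcf7l2 promoter held CTTTGT at position -14. The letters CTTTGA and CTTTGT were not in the Sfrp2 window nor in the upstream Tcf7l2 window, which says nothing of the binding of any factor.

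Libraries held 2000780 to 5409583 reads assigned to genes, with medians of 2883312 in vector unstimulated, 2217652 in tSema4B unstimulated, 4927256 in vector NE and 2776307 in tSema4B NE cells, so that vector NE libraries were the deepest. Sema4b itself had 65472 to 124008 normalized counts in the 6 vector libraries and 208760 to 316850 in the 6 tSema4B libraries; the matrix does not separate endogenous from construct transcripts. The summed level of 12 adipocyte markers ranged over 41974 to 48171 normalized counts in vector unstimulated, 7338 to 10060 in tSema4B unstimulated, 55916 to 67381 in vector NE and 11317 to 12827 in tSema4B NE libraries. Between tSema4B and vector cells, 11 of the 12 adipocyte markers passed the test as lower in each condition, and Ucp1, the uncoupling protein that defines thermogenic adipocytes, had 0 reads in all 3 tSema4B unstimulated libraries, which allows up to 3 reads. The 14 preadipocyte and fibroblast markers summed to 24211 to 24373 in vector unstimulated, 42084 to 48127 in tSema4B unstimulated, 19485 to 21392 in vector NE and 38288 to 41222 in tSema4B NE libraries, with 9 of 13 tested markers higher in tSema4B cells without stimulation, 10 of 13 after NE and 0 lower in either. Macrophage markers (8 genes, 13.1 to 59.6 summed, with Adgre1, Ptprc and Mrc1 at 0 in every library) and endothelial markers (7 genes, 4.34 to 23.3 summed, with Kdr and Tie1 at 0 in every library) had low sums. Macrophage sums were 13.1 to 21.7 in vector unstimulated and 41.7 to 59.6 in vector NE libraries. They were 17.8 to 29.4 in tSema4B unstimulated and 25.7 to 52.1 in tSema4B NE libraries. Endothelial sums were 4.34 to 12.0 in vector and 13.1 to 23.3 in tSema4B libraries without stimulation. After NE the endothelial sums were 5.24 to 14.8 in vector and 12.9 to 18.5 in tSema4B libraries. The 6 proliferation markers summed to 6683 to 7292 in vector and 4972 to 5929 in tSema4B libraries without stimulation. With NE these sums were 6286 to 6488 in vector and 5493 to 6489 in tSema4B libraries. Of these 6, 3 passed as lower in tSema4B cells without stimulation (Ccnb1, Cdk1 and Ccna2), beside 7.39% of all genes tested. Cdk1 alone passed as lower after NE, beside 11.2%, and 0 were higher in either condition. In bulk RNA, more cells of a type and more RNA per cell cannot be told apart, and the part of the marker shift in the Wnt gene results below was not tested.

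**Figure D1:**
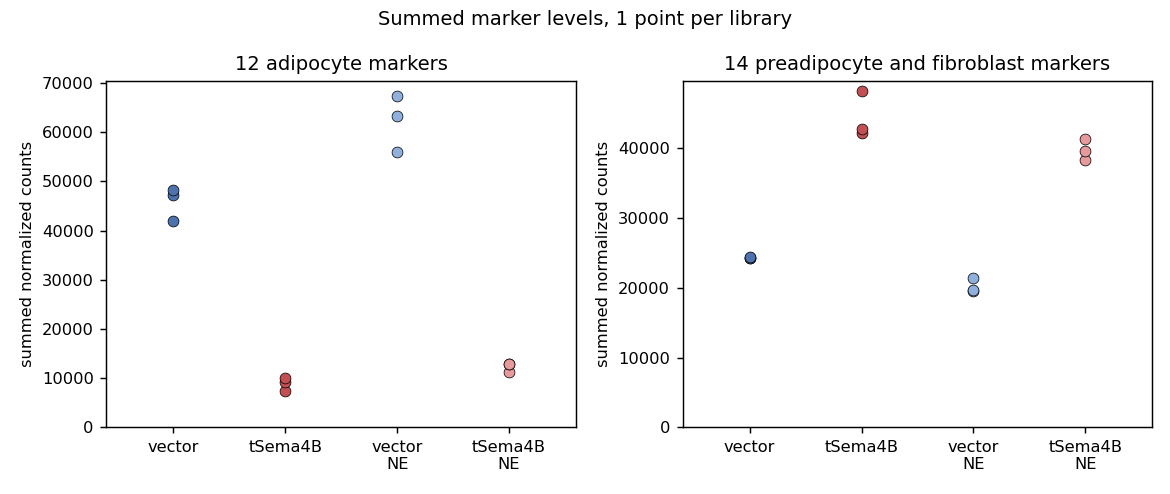
Summed normalized counts (y axis) of 12 adipocyte markers (left) and of 14 preadipocyte and fibroblast markers (right) in the 4 groups, 1 point per library. The adipocyte sums were at most 12827 in tSema4B libraries and at least 41974 in vector libraries, and the preadipocyte and fibroblast sums were at most 24373 in vector libraries and at least 38288 in tSema4B libraries.

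To compare levels between genes, normalized counts were divided by the exonic length of each gene (GENCODE M21). In vector unstimulated cells Sfrp2 had the highest level at 75.3 ± 11.8 normalized counts per kb (SD, n = 3), followed by Fzd1 at 28.2 ± 7.58, Tcf7l2 at 18.6 ± 2.06 and Rspo3 at 15.5 ± 4.84 per kb. Wnt5a stood at 7.40 ± 1.36 and Sfrp1 at 7.15 ± 2.88 per kb, and the lowest were Dkk2 at 3.32, Dkk3 at 2.95, Axin2 at 1.48 and Wnt5b at 0.410 per kb. Of neighbours in that order, only Sfrp2 and Fzd1, Rspo3 and Wnt5a, and Sfrp1 and Dkk2 had per-kb levels that did not overlap between libraries. Sfrp2 led and Fzd1 came next in all 4 groups, without overlap between these 2 genes, and Sfrp2 reached 151 ± 15.7 per kb in tSema4B unstimulated cells. Rspo3 stood at 24.1 ± 6.40 per kb in tSema4B unstimulated, 5.75 ± 1.62 in vector NE and 11.8 ± 4.31 in tSema4B NE cells.

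**Figure D2:**
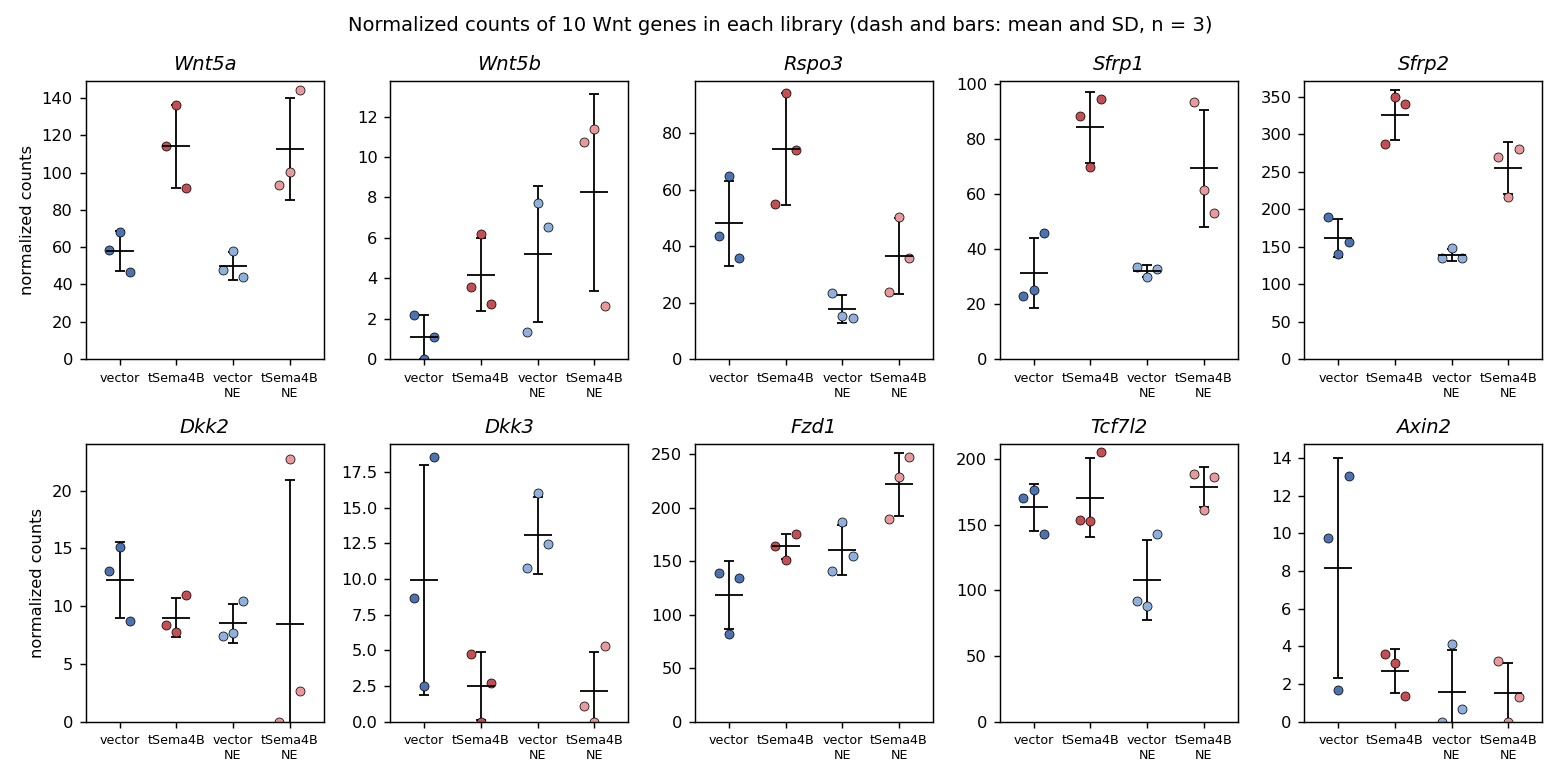
Normalized counts (y axis, from 0, a scale of its own in each panel) of the 10 genes in the 4 groups, with 1 point per library and a dash and bars for the mean and SD (n = 3); bars that would run below 0 stop at the axis. Wnt5a, Sfrp1 and Sfrp2 are higher in all tSema4B libraries than in all vector libraries of the same condition, and Wnt5b, Dkk2, Dkk3 and Axin2 lie at or below 22.7 normalized counts throughout.

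Without stimulation, 3 of the 8 tested genes rose in tSema4B against vector cells (Wnt5a, Sfrp1 and Sfrp2) and 0 fell, at a Benjamini-Hochberg adjusted p of 0.05 or less over all genes tested with limma on log2(normalized count + 1). Of all genes tested, 5.64% rose and 7.39% fell in that comparison. Library values did not overlap between the lines for 4 of the 8 genes (29.4% of all genes tested), and the median log2 fold change was 0.57 over the 8 genes and -0.0025 over all genes tested. After NE, 5 of the 8 rose in tSema4B against vector cells (Wnt5a, Rspo3, Sfrp1, Sfrp2 and Tcf7l2) and 1 fell (Dkk3, which met the filter on low values mainly through vector NE, the group in which it was highest), beside 9.79% and 11.2% of all genes tested. The number passing was 3 without vector NE replicate 2, in place of 6. With all libraries, 7 of the 8 did not overlap (37.7% of all genes tested), and the median log2 fold change was 0.81 over the 8 genes and -0.010 over all genes tested. The genes were chosen with earlier results of these data known, so these counts and medians are a description.

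The NE response was compared within each line. In vector cells 0 of the 8 rose and 2 fell (Rspo3 and Tcf7l2), beside 6.82% higher and 4.78% lower of all genes tested, and 2 of the 8 did not overlap (33.3% of all genes tested). With NE, 6 of the 13 tested preadipocyte and fibroblast markers also fell in each line (Pdgfrb, Dlk1, Cd34, Col1a1, Vim and Fn1) and 1 rose (Ly6a), and their part in the falls of Rspo3 and Tcf7l2 was not tested. Leaving out vector unstimulated replicate 2 gave 0 calls in vector cells, and leaving out vector unstimulated replicate 1 or any vector NE library gave 1. In tSema4B cells 0 of the 8 passed with limma, edgeR or DESeq2, beside 3.68% higher and 2.58% lower of all genes tested with limma. At an unadjusted p under 0.05, 3 of the 8 were found in tSema4B cells by each of the 3 tools (Fzd1, Rspo3 and Sfrp2), beside 19.9% of all genes tested at that threshold with limma, and 3 of the 8 did not overlap (20.7% of all genes tested). The comparisons share libraries with one another, since each group enters both a line comparison and an NE comparison.

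**Figure D3:**
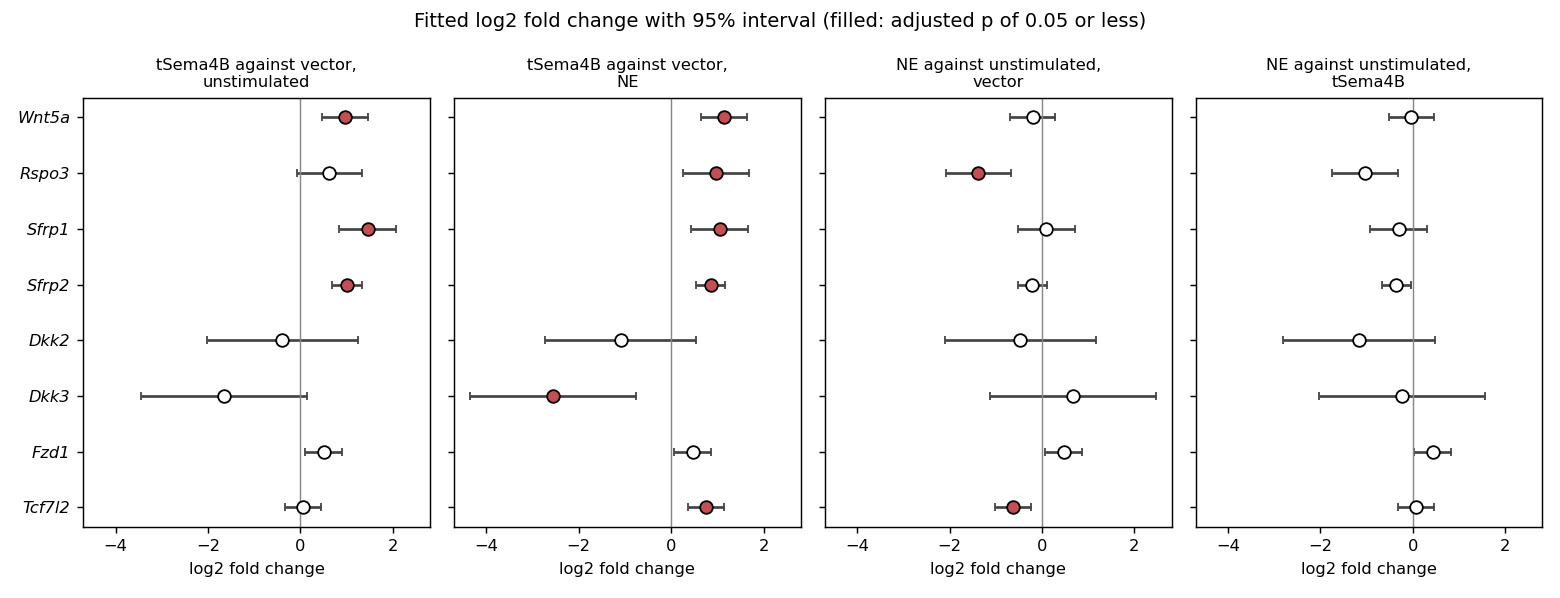
Log2 fold change (x axis) fitted by limma on log2(normalized count + 1), with its 95% interval, of the 8 tested genes in the 4 comparisons between groups; filled points have an adjusted p of 0.05 or less. Wnt5a, Sfrp1 and Sfrp2 are filled to the right of 0 in both comparisons of tSema4B with vector, and Rspo3 and Tcf7l2 are filled to the left of 0 for NE in vector cells.

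Wnt5a, the ligand best known for β-catenin-independent signalling (chr14:28504750-28527448, plus strand, GRCm38), had 58.6, 68.1 and 46.8 normalized counts in the vector unstimulated libraries and 114, 136 and 91.7 in the tSema4B unstimulated libraries. After NE it had 47.7, 58.1 and 43.9 in vector and 93.3, 100.4 and 144 in tSema4B libraries. Every tSema4B library thus lay above every vector library. The log2 fold change between the lines was 0.97 ± 0.24 (SE; a 1.95-fold difference, limma adjusted p = 0.00765) without stimulation and 1.14 ± 0.24 (2.21-fold, adjusted p = 0.00135) after NE. NE left no difference in Wnt5a that passed the test in either line, with log2 fold changes of -0.20 in vector (95% interval -0.69 to 0.29) and -0.03 in tSema4B cells (-0.52 to 0.46). Of its 7823 exonic bases, 358 are shared with the antisense gene Gm2670, whose reads cannot be told apart in libraries of this kind.

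Wnt5b, the closest relative of Wnt5a (chr6:119432531-119544347, minus strand), was not tested because only 2 libraries reached 10 normalized counts. Its reads were 2, 0 and 1 in vector unstimulated, 3, 4 and 2 in tSema4B unstimulated, 2, 13 and 10 in vector NE, and 10, 12 and 2 in tSema4B NE libraries. Without stimulation the reads of the lines met at 2, although the normalized counts were at most 2.17 in vector and at least 2.74 in tSema4B libraries, and after NE both overlapped. With no filter on low values, its log2 fold change between the lines was 1.40 without stimulation (limma adjusted p = 0.405) and 0.59 after NE (adjusted p = 0.732). In the same fit the NE response was 1.51 in vector (adjusted p = 0.381) and 0.70 in tSema4B cells (adjusted p = 0.768).

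Rspo3, a secreted agonist that binds LGR receptors and amplifies Wnt signals (chr10:29452416-29535867, minus strand), was lower after NE. It had 43.4, 64.7 and 35.9 normalized counts in vector unstimulated and 23.5, 15.4 and 14.4 in vector NE libraries. In tSema4B cells it had 54.8, 94.4 and 73.9 without stimulation and 23.6, 50.2 and 35.7 after NE. Within each line, no NE library reached the lowest unstimulated library. In vector cells Rspo3 fell by 1.37 ± 0.34 on the log2 scale (SE; 2.59-fold, adjusted p = 0.0106), and in tSema4B cells the log2 fold change was -1.04 ± 0.34 with an adjusted p of 0.0760, which missed the threshold. Leaving out vector unstimulated replicate 2 (adjusted p = 0.0745) or vector NE replicate 3 (0.0579) took the vector call past the threshold, and leaving out tSema4B NE replicate 2 brought the tSema4B value within it (-1.29, adjusted p = 0.0486).

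Between the lines, the values of Rspo3 overlapped without stimulation (log2 fold change 0.63, 95% interval -0.08 to 1.34, adjusted p = 0.256). After NE it was 0.97 ± 0.34 higher on the log2 scale in tSema4B cells (adjusted p = 0.0479), with the highest vector library at 23.5 and the lowest tSema4B library at 23.6 normalized counts. That call was lost without vector NE replicate 2 or 3 (adjusted p = 0.136 and 0.157), without tSema4B NE replicate 2 or 3 (0.201 and 0.0947), with a pseudocount of 10 (0.0622), with no filter (0.0985) and with only the libraries compared in the fit (0.0851). Of the 3090 exonic bases of Rspo3, 404 are shared with the antisense gene Gm48159.

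Among the antagonists, Sfrp1 and Sfrp2 rose in tSema4B cells while Dkk2 and Dkk3 did not. Sfrp1, a soluble Frizzled-related protein (chr8:23411502-23449632, plus strand), had 22.8, 25.2 and 45.7 normalized counts in vector unstimulated and 88.2, 69.6 and 94.5 in tSema4B unstimulated libraries, with no overlap. The difference was 1.45 ± 0.30 on the log2 scale (SE; 2.74-fold, adjusted p = 0.00172), the largest rise among the 8 genes in this fit. After NE it had 33.6, 29.6 and 32.7 in vector and 93.3, 61.5 and 52.9 in tSema4B libraries. All tSema4B NE libraries again lay above all vector NE libraries, with replicate 1 well above the other two. The log2 fold change after NE was 1.05 ± 0.30 (2.07-fold, adjusted p = 0.0144), and the call was lost without vector NE replicate 2 (1.00, adjusted p = 0.0527) and without tSema4B NE replicate 1 (0.82, adjusted p = 0.0823). The NE response of Sfrp1 did not pass in either line (0.10 in vector with adjusted p = 0.892, and -0.31 in tSema4B cells with adjusted p = 0.631).

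Sfrp2, the member with the highest level per length (chr3:83766321-83774316, plus strand), had 190.0, 140.4 and 156 normalized counts in vector unstimulated and 287, 349.6 and 341 in tSema4B unstimulated libraries. After NE the values were 135, 149 and 134 in vector and 269, 216 and 280.1 in tSema4B libraries. The lines did not overlap in either condition. Sfrp2 rose by 1.01 ± 0.15 on the log2 scale without stimulation (SE; 2.01-fold, adjusted p = 5.98e-05) and by 0.86 ± 0.15 after NE (1.81-fold, adjusted p = 3.05e-04). In tSema4B cells, NE libraries were all below unstimulated libraries, but the log2 fold change of -0.36 had an adjusted p of 0.185. Of its 2153 exonic bases, 347 are shared with the antisense gene Gm26771.

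Dkk3, a Dickkopf family protein (chr7:112116017-112159057, minus strand), was a rare transcript with 101 reads over the 12 libraries. Its reads were 8, 3 and 17 in vector unstimulated, 4, 0 and 2 in tSema4B unstimulated, 16, 27 and 19 in vector NE, and 1, 0 and 4 in tSema4B NE libraries. The lines overlapped without stimulation and not after NE, where the normalized counts were 13.1 ± 2.68 in vector and 2.12 ± 2.79 in tSema4B cells (SD, n = 3). Dkk3 fell by 2.56 ± 0.87 on the log2 scale after NE (SE; 5.91-fold, adjusted p = 0.0386), and without stimulation the log2 fold change was -1.65 (95% interval -3.45 to 0.15, adjusted p = 0.237). It reached 10 normalized counts in 4 libraries only, 3 of them vector NE libraries, so it entered the test through the group in which it was highest. The call after NE was lost when vector NE replicate 1, 2 or 3 (adjusted p of 0.0822 to 0.125) or tSema4B NE replicate 1 or 2 (0.0738 and 0.145) was left out, with no filter (0.0805) and with quantile normalization (0.0671), and the fitted log2 fold change ranged from -3.27 to -0.95 over all alternatives.

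Dkk2, which binds the LRP co-receptors (chr3:132085292-132180304, plus strand), had 12, 18 and 8 reads in vector unstimulated, 7, 5 and 8 in tSema4B unstimulated, 11, 13 and 16 in vector NE, and 0, 24 and 2 in tSema4B NE libraries. The tSema4B NE libraries ranged on both sides of every other group. After NE the mean was 8.52 ± 1.70 normalized counts in vector and 8.46 ± 12.4 in tSema4B cells (SD, n = 3). No comparison of Dkk2 passed, and after NE its log2 fold change between the lines was -1.09 (95% interval -2.73 to 0.55, adjusted p = 0.359). Without tSema4B NE replicate 2 that value became -2.31 with an adjusted p of 0.0254, while on recovered reads it was 0.06 with edgeR and 0.03 with DESeq2.

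Fzd1, a Wnt receptor (chr5:4753839-4758035, minus strand), had 139, 81.6 and 134 normalized counts in vector unstimulated, 164, 152 and 175 in tSema4B unstimulated, 141, 187 and 155 in vector NE, and 189.8, 229 and 247 in tSema4B NE libraries. The groups did not overlap in any of the 4 comparisons, with tSema4B above vector and NE above unstimulated, although the gap between neighbouring libraries was small between the lines after NE and for NE in vector cells. None of the 4 passed with limma: the log2 fold changes between the lines were 0.50 (95% interval 0.11 to 0.90, adjusted p = 0.0864) without stimulation and 0.46 (0.07 to 0.86, adjusted p = 0.0876) after NE. For NE they were 0.47 in vector (adjusted p = 0.122) and 0.43 in tSema4B cells (adjusted p = 0.201). When all libraries were rescaled to the same total, the difference between the lines after NE was 0.56 with an adjusted p of 0.0371. Without vector unstimulated replicate 2, the lowest library, the difference between the lines without stimulation was 0.26 (adjusted p = 0.439) and the NE response in vector cells 0.23 (adjusted p = 0.525).

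Tcf7l2, the TCF/LEF factor that carries β-catenin on DNA (chr19:55741820-55933654, plus strand), passed the test between the lines after NE, and for NE in vector cells. It had 170.5, 177 and 143 normalized counts in vector unstimulated and 154, 153 and 205 in tSema4B unstimulated libraries, which overlapped (log2 fold change 0.06, 95% interval -0.33 to 0.45, adjusted p = 0.893). After NE it had 92.1, 88.3 and 143 in vector and 189, 161 and 186 in tSema4B libraries, without overlap, and was 0.76 ± 0.19 higher on the log2 scale in tSema4B cells (SE; 1.69-fold, adjusted p = 0.00610). In vector cells Tcf7l2 fell by 0.62 ± 0.19 with NE (adjusted p = 0.0334), although vector NE replicate 3 was as high as vector unstimulated replicate 3. This fall was lost without vector unstimulated replicate 1 or 2 (adjusted p = 0.111 and 0.125), without vector NE replicate 1 or 2 (0.142 and 0.164) and with no filter (0.0621). In tSema4B cells the NE response was 0.08 on the log2 scale (95% interval -0.32 to 0.47, adjusted p = 0.876).

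Whether the NE response differed between the lines was tested as an interaction. None of the 8 genes passed with limma or edgeR, and DESeq2 gave an adjusted p to Sfrp2 alone (0.826) and could not call the others, while 0.025% of all genes tested passed with limma. At an unadjusted p under 0.05, 1 of the 8 was found by each tool, beside 10.2% of all genes tested at that threshold with limma. It was Tcf7l2, with a difference of 0.70 ± 0.27 on the log2 scale (SE; 95% interval 0.15 to 1.25, unadjusted p = 0.0156 and adjusted p = 0.346 with limma). The other interaction values ran from -0.91 for Dkk3 to 0.34 for Rspo3. A difference in NE response was therefore not shown for any of the genes.

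Axin2, the feedback target that is read most often as a sign of canonical signalling (chr11:108920349-108950783, plus strand), was not tested. It had 41 reads over the 12 libraries: 9, 2 and 12 in vector unstimulated, 3, 2 and 1 in tSema4B unstimulated, 0, 7 and 1 in vector NE, and 3, 0 and 1 in tSema4B NE libraries. The highest values lay in vector unstimulated replicates 1 and 3, and the groups overlapped. With no filter on low values, the log2 fold change was -1.07 between the lines without stimulation (limma adjusted p = 0.572) and -1.86 for NE in vector cells (adjusted p = 0.275). Of its 5506 exonic bases, 209 are shared with the antisense gene Gm11670.

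The wider pathway was read through 90 further Wnt genes, of which 75 had a read and 55 were tested. Without stimulation, 6 of the 55 rose in tSema4B cells and 1 fell, with a median log2 fold change of 0.16, beside 5.64% higher, 7.39% lower and a median of -0.0025 over all genes tested. After NE 10 rose and 1 fell, with a median of 0.22, beside 9.79%, 11.2% and -0.010 over all genes tested. These shares of all genes tested also stand beside the counts per role that follow, and nothing is read from a role's count alone. The wider lists were likewise chosen with earlier results of these data known. Among all 19 Wnt ligands, 7 had no read in any library, and 4 were tested: Wnt2, Wnt5a, Wnt6 and Wnt10a. Wnt2, a ligand of the canonical branch, had 22.5 ± 9.28 normalized counts in vector unstimulated and 57.2 ± 6.90 in tSema4B unstimulated cells, and 40.9 ± 8.85 and 117 ± 33.3 after NE (SD, n = 3). It rose by 1.37 ± 0.31 (SE; adjusted p = 0.00362) and 1.48 ± 0.31 (adjusted p = 0.00139) on the log2 scale, without overlap in either condition. With NE the log2 fold change of Wnt2 was 0.88 in vector (limma adjusted p = 0.0661) and 0.99 in tSema4B cells (0.0583), and neither passed. Wnt6 had 2.55 ± 0.65 normalized counts in vector NE and 13.3 ± 8.25 in tSema4B NE cells (log2 fold change 1.84, adjusted p = 0.0416), a call that was lost in 9 of 15 alternatives, among them each vector NE library and tSema4B NE replicate 1 or 2 left out (adjusted p up to 0.182 over all 15). The libraries in which Wnt6 reached 10 normalized counts were all tSema4B libraries, so it entered the test through the line in which it was high. Wnt10a, at group means of 6.64 to 16.2 normalized counts, did not pass in any comparison.

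In Wnt secretion, Wls, the carrier that brings Wnt proteins to the cell surface, rose by 0.61 ± 0.09 on the log2 scale without stimulation (adjusted p = 3.63e-05) and by 0.83 ± 0.09 after NE (adjusted p = 5.48e-07). Porcn, the enzyme that attaches the lipid to Wnt proteins, had 11, 14 and 5 reads in vector unstimulated and 0, 1 and 1 in tSema4B unstimulated libraries, and fell by 2.49 on the log2 scale (adjusted p = 0.0414); the call was lost in 10 of 15 alternatives, including without vector unstimulated replicate 1 or 2 and without tSema4B unstimulated replicate 1 or 3. Of the 5 libraries in which Porcn reached 10 normalized counts, 4 were vector libraries, so it entered the test mainly through the line in which it was high. Of 15 secreted antagonists listed, members included, 5 were tested, and Sfrp4 rose like Sfrp1 and Sfrp2: it had 49.5 ± 4.37 and 139 ± 36.8 normalized counts in vector and tSema4B cells without stimulation (log2 fold change 1.44 ± 0.29, adjusted p = 0.00124) and 61.6 ± 25.4 and 159 ± 44.1 after NE (1.41 ± 0.29, adjusted p = 0.00110).

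Of 17 tested receptors and co-receptors, 1 rose and 0 fell without stimulation, and 2 rose and 1 fell after NE. Of all genes tested, 5.64% rose and 7.39% fell without stimulation, and 9.79% rose and 11.2% fell after NE. Ptk7, a pseudokinase co-receptor, rose by 0.65 ± 0.17 (adjusted p = 0.0117; 0.0612 without tSema4B unstimulated replicate 2) and by 0.74 ± 0.17 (adjusted p = 0.00317) on the log2 scale. Kremen1, a receptor for Dkk proteins, rose by 0.61 ± 0.17 after NE (adjusted p = 0.0122; 0.0539 without vector NE replicate 1). Lgr4, a receptor for R-spondins, fell by 0.90 ± 0.30 after NE (adjusted p = 0.0329), a call that was lost in 7 of 16 alternatives, including without any of vector NE replicates 1, 2 and 3 and without tSema4B NE replicate 1 or 3.

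Of the 14 cytoplasmic genes, all tested, 0 passed between the lines without stimulation and 2 rose after NE, where 9.79% of all genes tested rose. Btrc, the ubiquitin ligase adaptor that marks β-catenin for destruction, rose by 0.97 ± 0.21 (adjusted p = 0.00240), from 69.5 ± 9.61 to 137 ± 13.5 normalized counts. Apc2, a relative of the scaffold Apc, rose by 1.83 ± 0.54 (adjusted p = 0.0175), which was lost with no filter and without vector NE replicate 3 or tSema4B NE replicate 2 (adjusted p up to 0.0955). Ctnnb1, which encodes β-catenin, did not pass between the lines in either condition (-0.08, adjusted p = 0.594, and 0.18, adjusted p = 0.152). In the nuclear group of 13 genes, Tle2, a Groucho-type corepressor, rose by 1.28 ± 0.26 without stimulation (adjusted p = 0.00192) and by 1.13 ± 0.26 after NE (adjusted p = 0.00394).

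Of 17 listed targets and feedback genes, 9 were tested and 1 passed between the lines in each condition, beside 5.64% of all genes tested that rose without stimulation and 9.79% after NE. This was Wisp2, which encodes the secreted protein CCN5. It had 218 ± 30.8 and 345 ± 42.5 normalized counts in vector and tSema4B cells without stimulation (log2 fold change 0.66 ± 0.13, adjusted p = 9.57e-04) and 421 ± 23.3 and 675 ± 65.1 after NE (0.68 ± 0.13, adjusted p = 5.78e-04). Wisp2 also rose with NE, by 0.95 ± 0.13 in vector (adjusted p = 2.86e-05) and by 0.97 ± 0.13 in tSema4B cells (adjusted p = 3.56e-05), and was the single wider Wnt gene that rose with NE in either line with limma at the main settings, beside 6.82% and 3.68% of all genes tested. With NE, 5 of the 55 fell in vector cells (Wls, Ptk7, Apc2, Ctnnb1 and Tle2), beside 4.78% of all genes tested, each of which lost its call in 3 to 7 alternatives (highest adjusted p per gene 0.0803 to 0.197), and 1 fell in tSema4B cells, beside 2.58% (Tle2, by 1.03 ± 0.26, adjusted p = 0.0200; up to 0.0751 without tSema4B unstimulated replicate 2 or tSema4B NE replicate 1). The number of wider genes passing with NE in tSema4B cells, 2 with limma, was 4 with edgeR, 7 with DESeq2 and 6 with a pseudocount of 10. None of the 55 passed the interaction test with limma.

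**Figure D4:**
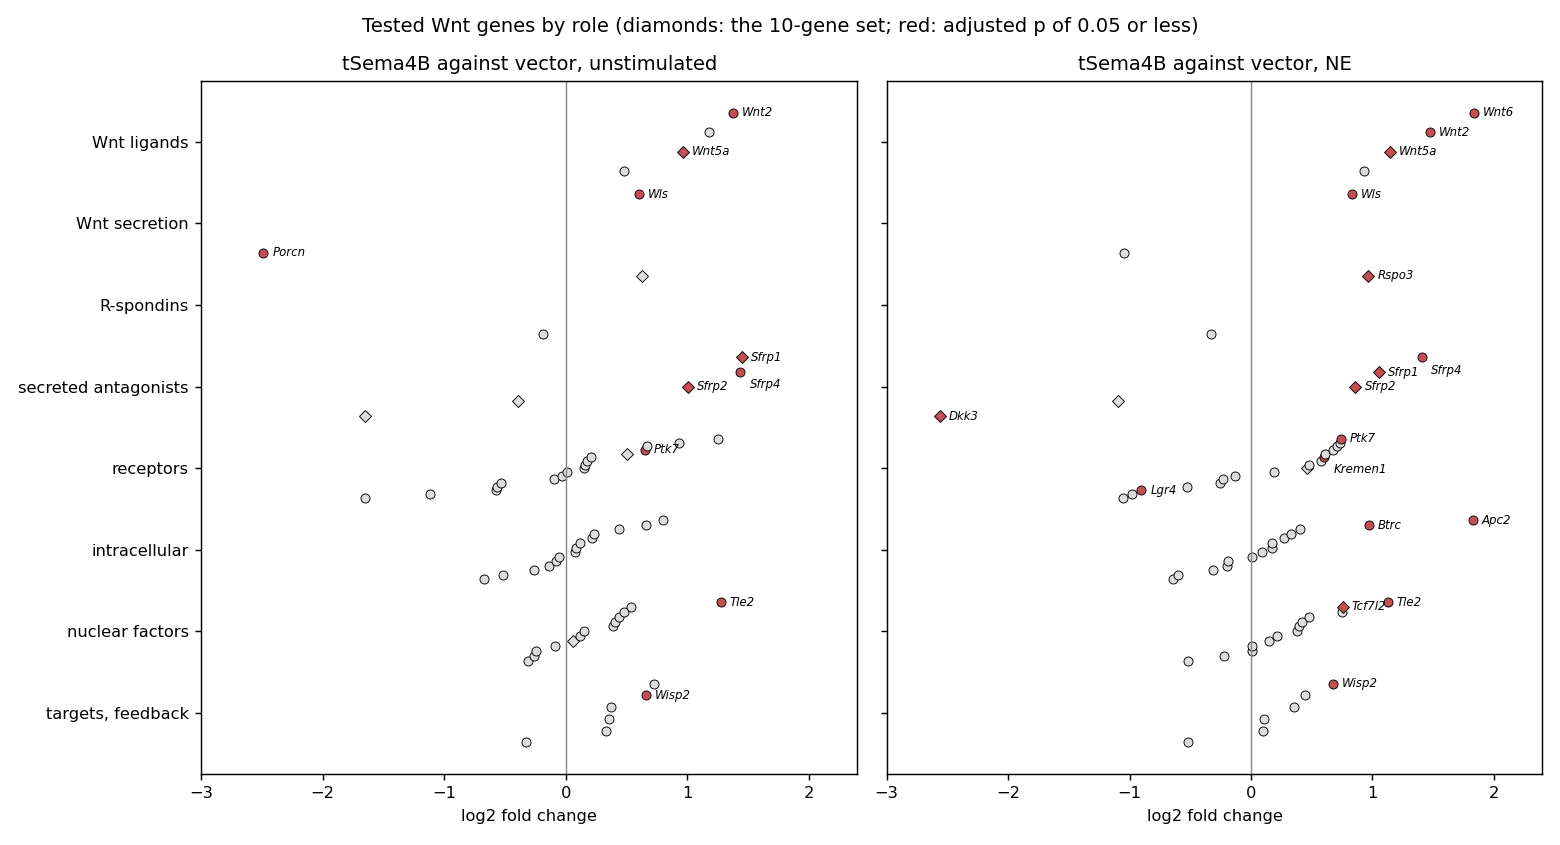
Log2 fold change (x axis) of the 63 tested Wnt genes in tSema4B against vector cells, without stimulation (left) and after NE (right), in rows by role; a gene in more than 1 list is shown once. Diamonds are genes of the 10-gene set, circles the wider pathway, and red symbols have an adjusted p of 0.05 or less; red symbols lie to the right of 0 except Porcn on the left panel and Dkk3 and Lgr4 on the right panel.

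For each tested gene, the gene outside the set with the most similar profile over the 12 libraries was found by Pearson correlation of log2(normalized count + 1). These were Copa for Wnt5a (r = 0.960), Gabra3 for Sfrp1 (0.959), Cers5 for Sfrp2 (0.977), Emilin1 for Rspo3 (0.956), Rnf146 for Dkk2 (0.917), Ube2v2 for Dkk3 (0.918), Wnt2 for Fzd1 (0.925) and Tfe3 for Tcf7l2 (0.921). Gabra3 had 14.8 ± 13.7 and 10.1 ± 2.84 normalized counts in vector cells without and with NE, and 107 ± 19.7 and 91.8 ± 15.4 in tSema4B cells. Emilin1 fell from 205 ± 25.5 to 121 ± 13.3 in vector and from 285 ± 33.4 to 199 ± 13.6 normalized counts in tSema4B cells with NE. The points share the 2 lines and the 2 treatments and each r is the highest of all tested genes, so these values are a description.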

How the data were processed

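RNA of 12 libraries was sequenced after SMART-Seq2 and Nextera XT preparation. The authors aligned reads to mm10 (GRCm38.p4) with STAR 2.7.9a, used htseq-count for gene counts and DESeq2 size factors for scaling, and the deposited signal is these normalized counts. The gene annotation and the strand setting are not given in the sources used here. The kit does not mark strand. Every deposited value was a whole multiple, within 0.01, of what 1 read was worth in its library, so whole reads and depths were recovered (2000780 to 5409583 reads). The limit given for the reads of Ucp1 covers counting error only. The 95% intervals of log2 fold changes are from limma and cover the spread between libraries.

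Genes that reached 10 normalized counts in 3 or more of 12 libraries were tested with limma 3.58.1 (R 4.3.3; eBayes with trend, 1 fit over all libraries) on log2(normalized count + 1), with Benjamini-Hochberg adjustment over 11998 genes and a two-sided threshold of 0.05. Fold changes are on that scale, where the pseudocount pulls those of low genes towards 0, and where a library at or near 0 reads can pull them away from the ratio of group means. An exact permutation test of 3 against 3 libraries cannot go below p = 0.1 and was not used. Alternatives were edgeR 4.0.16 (TMM, quasi-likelihood) and DESeq2 1.42.0 on recovered reads, pseudocounts of 0.5 and 10, no filter and a filter of 50, rescaling to 1 total, quantile normalization, a fit of only the libraries compared, a replicate block and each library left out. Scripts were tested on simulated data.

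Named were the 10 members, every Wnt ligand with a group mean of at least 10 normalized counts, and at most 3 genes per role with the largest change among those passing. Members and lists were chosen with earlier results of these data known. For each tested member, the most correlated other gene was also named; the levels of Gabra3 and Emilin1 were chosen for print after they were seen. Gene positions and exonic lengths are from GENCODE M21, and promoters from RefSeq (GRCm38.p6).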

Additional observations from a re-analysis of the deposited data

How the results depend on the processing

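Over 32 log2 fold changes of the 8 tested genes and 504 alternative values, 467 kept their direction and their side of the threshold, 23 lost the threshold, 3 gained it and 11 in 5 of the fold changes turned direction, each of the 5 without a call under limma. Wnt5a and Sfrp2 in both comparisons of the lines, Sfrp1 without stimulation and Tcf7l2 after NE kept their calls under all 16 alternatives. The number of genes passing was 3 in every alternative between the lines without stimulation. Between the lines after NE it was 3 to 5 of 8 with each library left out, against 6 with all of them, and was lowest without vector NE replicate 2. For NE in vector cells it was 1 with no filter and 0 to 2 with each library left out, and it was 0 without vector unstimulated replicate 2. For NE in tSema4B cells it was 0 to 1, and was 1 without tSema4B NE replicate 2. The fold changes that turned direction with a library left out ranged from -0.083 to 0.13 for Tcf7l2 between the lines without stimulation, from -0.088 to 0.40 for Sfrp1 with NE in vector cells, and from -0.22 to 0.11 for Wnt5a and from -0.98 to 0.37 for Dkk3 with NE in tSema4B cells; Dkk2 between the lines after NE was 0.055 with edgeR and 0.029 with DESeq2, and the cause was not tested. Another scaling moved the median of all genes by at most 0.0935 (log2). After rescaling to 1 total, 1651 of 2681 genes that passed between the lines after NE were higher, against 1175 of 2517. The interaction passed for 3 genes with limma and 101 with DESeq2, which gave no adjusted p to 7 of the 8 tested members. Replicate numbers did not pair the libraries (18 pairs, correlation of deviations -0.047 to 0.0282), and with the replicate block the members passing were 3, 6, 2 and 0 in the 4 comparisons, as without it, with an adjusted p of 0.0460 for Rspo3 between the lines after NE; wider Wnt genes passing for NE in tSema4B cells went from 2 to 4, and over all alternatives they were 1 to 7; for NE in vector cells they were 2 to 9, against 6. Depth limits Wnt5b, Dkk2, Dkk3 and Axin2 most, at 41 to 124 reads each over 12 libraries.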
